A study of Bos taurus with 6 samples.

Results

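The genes described here build the machinery that copies DNA in S phase. They are 50 genes, chosen by name: the origin licensing factors and the MCM helicase, the factors that fire an origin, the sliding clamp and its loader, the single-stranded DNA binding complex RPA, the replicative polymerases and primase, the enzymes that finish Okazaki fragments, the core enzymes of deoxynucleotide synthesis, and the E2F factors with cyclin E and UHRF1. Of the 50, 45 were found by gene symbol on the array, each on 1 of its 24415 transcript clusters, probe groups that are each summarized to 1 level. Another 3 (GINS1, RPA3 and PRIM2) were found only through the accession of their transcript and are given apart, and MCM4 and POLD1 are not analysed here.

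The cells were primary bovine granulosa cells, the hormone-producing cells around the oocyte, taken from small and medium-sized follicles, stored frozen, and kept for 4 d without serum in alpha-MEM with FSH, IGF1 and androstenedione. On day 2 they received for 2 h either 50 µM PD98059, an inhibitor of MEK that blocks the activation of ERK1/2, or DMSO, its vehicle. The medium was replaced afterwards, in full and without inhibitor by the methods but by 70% in the sample labels, and culture went on to day 4. RNA of 3 DMSO-treated control cultures and 3 PD98059-treated cultures was read on 6 bovine gene arrays, 1 culture per array. The study's legends count independent cultures as n. No source used here says whether the 3 cultures of a group came from separate cell preparations, so each p-value rests on the variation among these cultures alone.

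Before S phase, the origin recognition complex, CDC6 and CDT1 load MCM2 to MCM7 onto origins as an idle ring. The kinase CDC7, together with cyclin-dependent kinases, then turns that ring into a moving helicase with CDC45 and the GINS complex. Polymerase alpha with primase starts each strand, polymerases delta and epsilon extend it on the PCNA clamp, and FEN1 and LIG1 join the lagging-strand pieces. Most of these genes are textbook targets of the E2F factors, which pocket proteins restrain until cyclin-dependent kinases release them. In growing follicles, granulosa cells proliferate under FSH and IGF1, and mitogens are known to drive entry into the cell cycle through ERK1/2 in many cell types.

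All values are log2 levels after the Robust Multichip Average (RMA), and a difference is always PD98059-treated minus DMSO-treated. Since probes differ in brightness, levels of different genes are not read as relative amounts of transcript. Brightest and dimmest refer to the array level only, and sums of levels weigh bright clusters most. All 45 genes lay above the background of 3.71, the 95th percentile of 363 olfactory receptor clusters, with mean levels from 4.06 (POLE2) to 8.92 (PCNA). The threshold asked for an FDR under 0.05 (Benjamini-Hochberg, over all clusters) together with a fold above 1.4, which is 0.49 on the log2 scale.

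The replication genes leaned towards higher levels after PD98059, by small amounts. Of the 45 genes, 1 was higher past the threshold (the thymidine kinase TK1) and 0 were lower, where 0.909% of all clusters were higher, 1.78% were lower and 2.69% passed in either direction. At the FDR limit alone, 5 were higher (TK1, CDC7, RPA1, E2F1 and MCM3) and 0 lower, beside 1.72% and 2.82% of all clusters. At an unadjusted p under 0.05, 24 were higher and 1 was lower, beside 9.47% and 10.2% of all clusters. The unmoderated test gave 23 and 0, and the share of all clusters was not counted for it. All 3 PD98059-treated cultures lay above all 3 control cultures in 27 of the 45 genes (60.0%), against 12.6% of all clusters. The opposite order was found in 0 genes, against 13.0% of all clusters, and the groups overlapped in the other 18.

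The difference was above 0 in 40 of the 45 genes (88.9%), whereas it was above 0 in 52.9% of all clusters. Its median over the genes was 0.22, with a range from -0.36 to 0.73, beside a median of 0.01 over all clusters. Of the 12816 clusters within the level range of these genes, 49.1% had a difference above 0 and 14.9% had non-overlapping groups with the higher level after PD98059. The median standard error of a difference was 0.08 for the replication genes, beside 0.10 over all clusters. These genes were read on the same 6 arrays and many share regulators, so the counts are descriptions of the list without a test of their own.

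**Figure D1:**
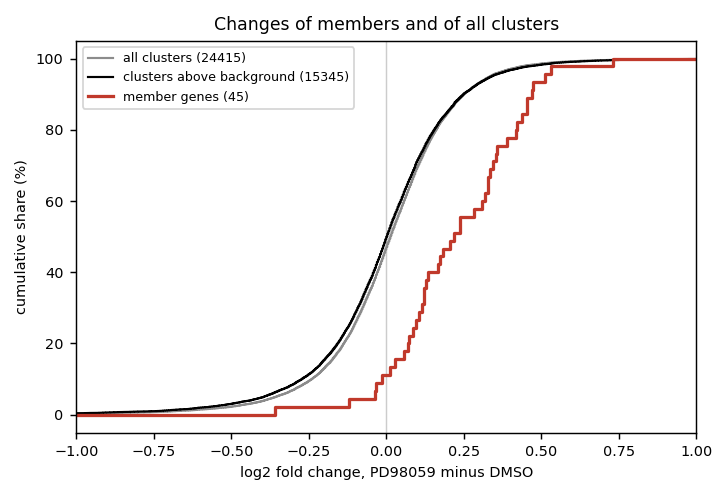
Cumulative share of genes in percent (vertical axis) by log2 difference, PD98059-treated minus DMSO-treated (horizontal axis), for the 45 replication genes (members, red), all 24415 clusters (grey) and the 15345 clusters above background (black). The curve of the replication genes lies to the right of both others, with a median of 0.22 against 0.01 and 0.00.

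The lean was present in each PD98059-treated culture and was largest in replicate 2. The mean level over the 45 genes was 6.44, 6.52 and 6.51 in the DMSO-treated cultures and 6.72, 6.75 and 6.68 in the PD98059-treated cultures. Set against the mean of the control cultures, the median gene stood at -0.04, 0.04 and 0.02 in the controls and at 0.17, 0.29 and 0.16 after PD98059. PD98059 replicate 2 was the sole highest culture for 20 genes and replicates 1 and 3 for 11 and 8, while each control culture was the sole highest for 1 or 2. DMSO replicate 1 was the sole lowest culture for 21 genes, more than DMSO replicates 2 and 3 with 8 each. Without that culture the median difference was 0.20, and over the removal of each culture in turn it ran from 0.18 (without PD98059 replicate 2) to 0.25. Within a group the cultures were close, with a median SD of 0.078 in the controls and 0.08 after PD98059.

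**Figure D2:**
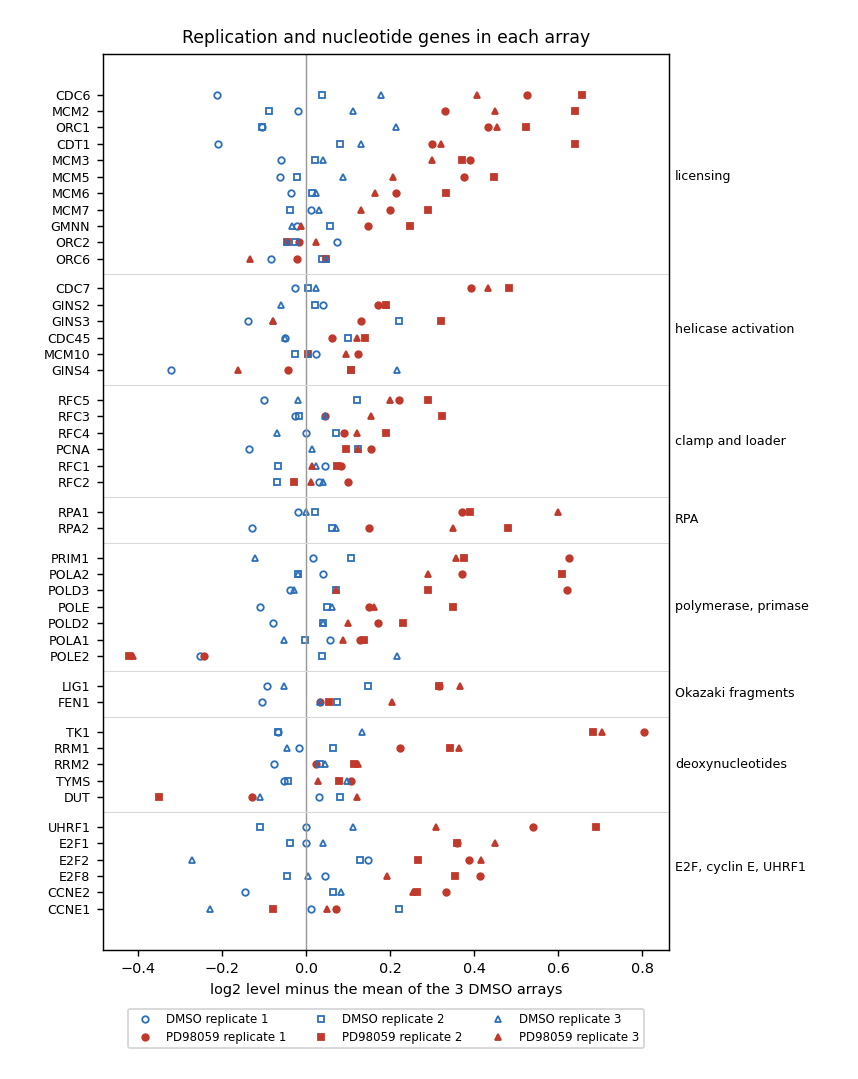
Log2 level of each replication gene in each of the 6 cultures, drawn as the distance from the mean of the 3 DMSO-treated cultures (horizontal axis), with open symbols for DMSO, filled symbols for PD98059, 1 shape per replicate number and genes grouped by role. Each PD98059-treated culture lies above the control mean for 40 of the 45 genes.

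Licensing of origins was the largest role group with a clear lean. Its 11 measured genes had a median difference of 0.34, and the groups did not overlap for 8 of them, all higher after PD98059 (72.7%, beside 12.6% of all clusters), although 0 passed the threshold and 1 (MCM3) passed the FDR limit. MCM3, a subunit of the MCM ring, measured 6.48, 6.56 and 6.58 in the control cultures and 6.93, 6.91 and 6.84 after PD98059. Every treated culture was thus above every control, and the difference was 0.35 with a standard error (SE) of 0.07 and an adjusted p of 0.0355. CDC6, the ATPase that loads the ring together with CDT1, had the largest difference of the group. It measured 5.27, 5.52 and 5.66 in the controls and 6.01, 6.14 and 5.89 after PD98059. The cultures spread more for CDC6 than for MCM3 in both groups, and its difference of 0.53 (SE 0.12) stayed short of the FDR limit at an adjusted p of 0.0594.

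The brightest of the licensing group was MCM7, another subunit of the ring, with 7.85, 7.80 and 7.87 in the controls and 8.04, 8.13 and 7.97 after PD98059. Its groups were apart as well, with a smaller difference of 0.21 (SE 0.07, adjusted p 0.174). The remaining MCM subunits lay in the same direction, with differences of 0.47 for MCM2 (adjusted p 0.0525), 0.34 for MCM5 and 0.24 for MCM6, and with groups apart in each. ORC1, the subunit of the origin recognition complex whose level is tied to the cell cycle, differed by 0.47 (adjusted p 0.0554). Without DMSO replicate 3 the difference of ORC1 became 0.58 and passed the threshold with an adjusted p of 0.0379. CDT1 differed by 0.42 (adjusted p 0.144) with groups apart. Other members of the group stayed near 0: ORC2 at -0.01 (95% confidence interval -0.17 to 0.15), ORC6 at -0.04 (-0.22 to 0.15) and geminin (GMNN), the inhibitor of CDT1, at 0.13 (-0.08 to 0.33).

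Among the 6 genes that fire origins, CDC7 stood apart from the rest. This kinase phosphorylates the loaded MCM ring, and it measured 7.42, 7.45 and 7.47 in the controls and 7.84, 7.93 and 7.88 after PD98059. The cultures of each group lay within 0.1 of one another, with a gap between the groups several times as wide. The difference was 0.44 (SE 0.06, 95% confidence interval 0.29 to 0.59) with an adjusted p of 0.0156, and a fold of 1.35 kept it below the threshold. GINS2 differed by 0.18 with groups apart (adjusted p 0.181). The helicase cofactor CDC45 (0.11), the other GINS subunits GINS3 (0.12) and GINS4 (-0.03) and the initiation factor MCM10 (0.07) had overlapping groups, and the median of the 6 was 0.11. GINS1, listed under a provisional gene name, was at 0.10.

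The sliding clamp and its loader moved little. PCNA, the ring that holds the polymerases on DNA and a common marker of proliferation, measured 8.72, 8.98 and 8.87 in the controls and 9.01, 8.95 and 8.98 after PD98059. The groups overlapped, and the difference of 0.12 had a 95% confidence interval from -0.08 to 0.32. RFC5, a subunit of the clamp loader, had the largest difference of the group. Its levels were 7.89, 8.11 and 7.97 in the controls and 8.21, 8.28 and 8.19 after PD98059, a difference of 0.24 (SE 0.08, adjusted p 0.169) with groups apart. The other loader subunits were at 0.06 (RFC1), 0.03 (RFC2), 0.17 (RFC3) and 0.13 (RFC4, groups apart).

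RPA coats the unwound single strands, and both of its subunits found by symbol were higher in every PD98059-treated culture than in any control. That order was found in 12.6% of all clusters. RPA1, the large subunit, measured 8.20, 8.24 and 8.22 in the controls and 8.59, 8.61 and 8.82 after PD98059. Its controls were almost level while PD98059 replicate 3 stood above the other treated cultures. The difference was 0.45 (SE 0.08, adjusted p 0.0316) with a fold of 1.37. RPA2 differed by 0.33 (adjusted p 0.158), and RPA3, on a cluster that carries several gene names, was at -0.05 with a 95% confidence interval from -0.24 to 0.15.

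The polymerase genes included the only gene of the 45 with a lower level at an unadjusted p under 0.05. POLE2, a small subunit of polymerase epsilon chosen for mention after its values were seen, measured 3.99, 4.28 and 4.46 in the controls and 4.00, 3.82 and 3.83 after PD98059. It was also the dimmest of the 45 genes, its groups overlapped, and its difference of -0.36 (SE 0.13, unadjusted p 0.0273) did not pass at an adjusted p of 0.191. PRIM1, the catalytic subunit of primase, lay on the other side with 6.03, 6.12 and 5.89 in the controls and 6.64, 6.39 and 6.37 after PD98059. The groups of PRIM1 did not overlap, and the difference was 0.45 (SE 0.10, adjusted p 0.0608).

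The catalytic subunit of polymerase alpha, POLA1, measured 7.15, 7.09 and 7.04 in the controls and 7.22, 7.23 and 7.18 after PD98059. Its groups were apart by a narrow margin, with a difference of 0.12 (SE 0.06, adjusted p 0.389). The accessory subunit POLA2 differed by 0.42 (adjusted p 0.0603). Of the subunits of polymerase delta, POLD2 was at 0.17 with groups apart and POLD3 at 0.33 with overlapping groups, since 1 treated culture (6.09) equalled the highest control. The catalytic subunit of polymerase epsilon, POLE, was at 0.22 with groups apart. PRIM2, whose cluster carries several names, was at 0.15. Over the 7 polymerase and primase genes found by symbol, the median was 0.22, with 5 genes higher in every treated culture than in any control (71.4%, beside 12.6% of all clusters).

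The enzymes that finish Okazaki fragments differed from each other in whether the groups overlapped. The ligase LIG1 measured 5.75, 5.99 and 5.79 in the controls and 6.16, 6.16 and 6.21 after PD98059. Those groups were apart, with a difference of 0.33 (SE 0.08, adjusted p 0.0803). The flap nuclease FEN1 measured 5.93, 6.11 and 6.07 in the controls and 6.07, 6.09 and 6.24 after PD98059, which overlap, and its difference was 0.10 (SE 0.08, adjusted p 0.585).

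**Figure D3:**
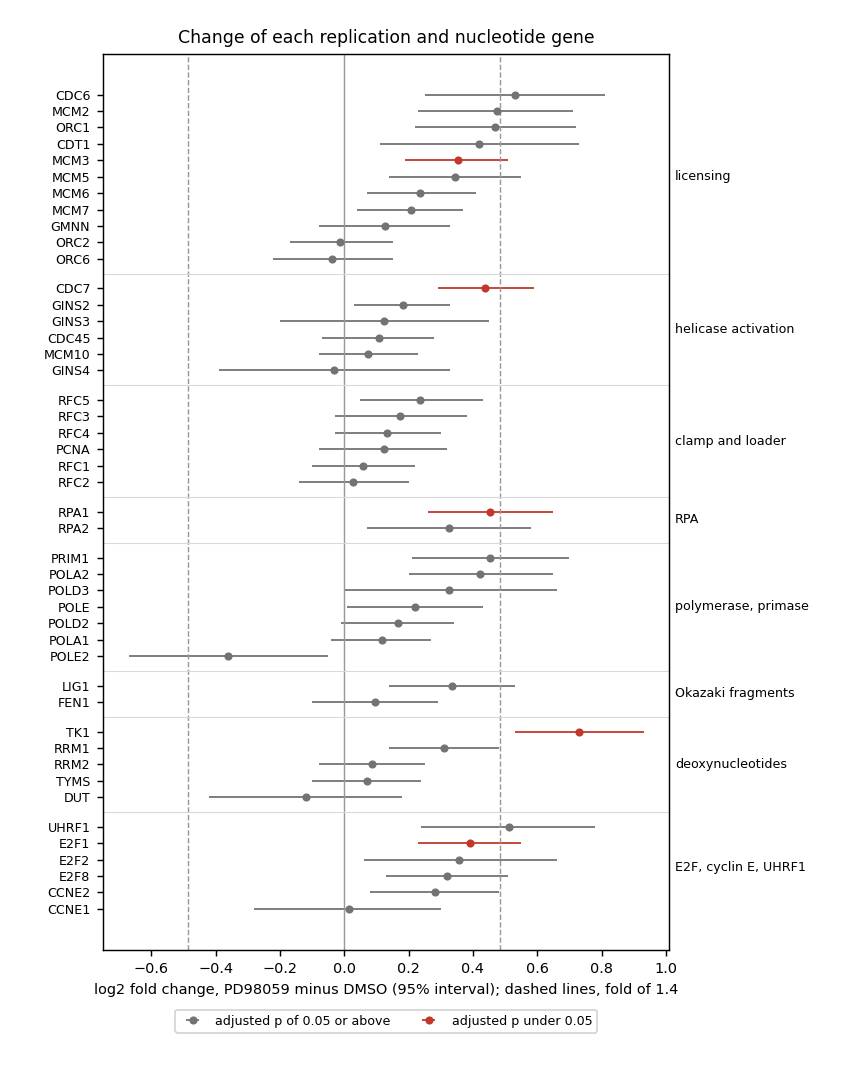
Log2 difference, PD98059-treated minus DMSO-treated, of each of the 45 replication genes (points) with its 95% confidence interval from limma (bars), grouped by role. Red marks an adjusted p under 0.05 (TK1, CDC7, RPA1, E2F1 and MCM3), dashed lines mark a fold of 1.4, and POLE2 at -0.36 has the lowest value.

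Deoxynucleotide synthesis held the one gene that rose past the threshold. TK1, which phosphorylates thymidine in the salvage route and whose transcript is an S phase marker, measured 6.93, 6.93 and 7.13 in the controls and 7.80, 7.68 and 7.70 after PD98059. The lowest treated culture lay well above the highest control, with means of 7.73 ± 0.064 against 7.0 ± 0.115 (SD, n = 3 each). TK1 was 1.66-fold higher after PD98059, a log2 difference of 0.73 (SE 0.08, 95% confidence interval 0.53 to 0.93) with an adjusted p of 0.00719. It passed with any 1 culture left out, at adjusted p from 0.0229 to 0.0437, but not with the replicate number as a block (adjusted p 0.0514) or when limma's treat tested the fold limit itself (adjusted p 1.0).

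The other 4 enzymes of the group did not pass. RRM1, the large subunit of ribonucleotide reductase, measured 8.31, 8.39 and 8.28 in the controls and 8.55, 8.67 and 8.69 after PD98059. Its groups were apart, with a difference of 0.31 (SE 0.07, adjusted p 0.0663). The small subunit RRM2, which is the S phase-limited one, was at 0.09 (95% confidence interval -0.08 to 0.25) with overlapping groups. Thymidylate synthase (TYMS), which makes thymidylate from scratch where TK1 salvages it, was at 0.07 (-0.10 to 0.24), and the dUTPase gene DUT was at -0.12 (-0.42 to 0.18). The intervals of RRM2 and TYMS lie wholly below that of TK1, though the differences between these genes were not tested.

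The E2F group leaned as far as licensing did, with a median of 0.34 and 5 of 6 genes higher in every treated culture than in any control (83.3%, beside 12.6% of all clusters). E2F1, the activating factor whose own gene is an E2F target, measured 6.01, 5.97 and 6.05 in the controls and 6.37, 6.37 and 6.46 after PD98059. The cultures of each group were close together, and the difference was 0.39 (SE 0.07, adjusted p 0.0255) with a fold of 1.31. UHRF1, which recruits the maintenance methyltransferase to newly copied DNA, had the largest difference of the group. It measured 5.95, 5.84 and 6.06 in the controls and 6.49, 6.64 and 6.26 after PD98059. The treated cultures of UHRF1 were more scattered than the controls, with a difference of 0.51 (SE 0.11), a fold of 1.43 and an adjusted p of 0.058.

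Cyclin E, the partner of CDK2 at the start of S phase, is encoded by a pair of genes. CCNE2 measured 6.22, 6.43 and 6.45 in the controls and 6.70, 6.63 and 6.62 after PD98059, a difference of 0.28 (SE 0.08, adjusted p 0.126) with groups apart. CCNE1 was at 0.01, with a 95% confidence interval from -0.28 to 0.30 and overlapping groups. E2F2, an activating factor, was at 0.36, and E2F8, an atypical factor that represses E2F targets, was at 0.32, both with groups apart.

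The calls of single genes at the FDR limit, TK1 apart, were lost in most fits with 1 culture left out. With any 1 culture left out, 1 or 2 of the 45 genes passed the FDR limit in place of 5. Calls fell over the whole array as well, where 271 to 491 clusters passed the threshold in place of 656. CDC7 passed without PD98059 replicate 1 (adjusted p 0.0448) but not without any of the other 5, while E2F1, RPA1 and MCM3 passed in none of the 6 cases. Over all alternatives the difference ran from 0.40 to 0.46 for CDC7 and from 0.36 to 0.43 for E2F1. It ran from 0.38 to 0.50 for RPA1 and from 0.32 to 0.39 for MCM3. Alternatives that change only the test cannot move a difference. In simulated data made after these arrays, the FDR limit alone found 5 of 50 simulated 1.3-fold differences, 39 of 50 at 1.5-fold and 48 of 50 at 2-fold. The median difference of the replication genes was smaller than the smallest of these folds. Only 200 clusters were changed in the simulation and 148 passed the FDR limit, against 1110 in the measured data. The same limit therefore asked for a smaller unadjusted p there, so these counts are not the sensitivity of the measured fit.

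**Figure D4:**
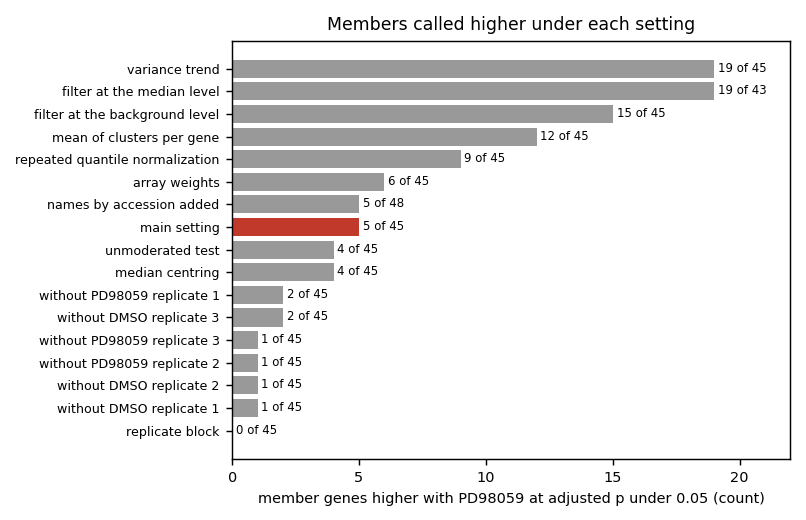
Number of replication genes (members, horizontal axis) higher after PD98059 at an adjusted p under 0.05, with no fold limit, under each processing setting, and the fit as reported in red. The counts range from 0 with the replicate block to 19 with a variance trend or a filter at the median level, which left 43 genes in the fit. In the fit as reported, 1.72% of all clusters were higher at this limit. That share is not given for the other settings.

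Other genes of replication and of the cell cycle were counted in 7 lists that exclude the 45 genes. Of 114 listed genes, 106 were measured by symbol, with a median difference of 0.15. Past the threshold, 4 of them were higher and 3 lower, beside 0.909% and 1.78% of all clusters. The further licensing and helicase factors had 0 of 18 past the threshold and a median of 0.15. The brightest of them were MCMBP at 0.12, ORC4 at -0.21 and TOPBP1 at 0.27. Among 14 further polymerase, topoisomerase and Okazaki genes, with a median of 0.09, 2 were higher past the threshold (beside 0.909% of all clusters). They were TOP2A, the topoisomerase that untangles copied chromosomes, at 0.56 (adjusted p 0.0134) and POLQ, a repair polymerase, at 0.53 (adjusted p 0.00856). POLQ lost its call without DMSO replicate 1 (adjusted p 0.0512), and TOP2A lost it without DMSO replicates 1 or 3 or PD98059 replicates 2 or 3 (0.0562 to 0.0662). RNASEH2C (0.01), TOP1 (-0.04) and POLE3 (0.10), the brightest of the rest, did not pass.

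Of 23 further nucleotide synthesis genes measured by symbol, 0 were higher and 3 fell past the threshold, with a median of -0.03. Of all clusters, 0.909% were higher and 1.78% lower. NME2, found only through its transcript accession, was lower at the FDR limit alone (-0.43, adjusted p 0.0305). DCTD, which deaminates dCMP to dUMP upstream of thymidylate synthase, measured 5.74, 5.69 and 5.71 in the controls and 4.96, 4.80 and 5.10 after PD98059. It was thus lower in every treated culture, with a difference of -0.76 (SE 0.09, adjusted p 0.00832). IMPDH1, an enzyme of guanine nucleotide synthesis, fell by 0.69 (adjusted p 0.0361), and CMPK1, the kinase that makes CDP and UDP from their monophosphates, fell by 0.50 (adjusted p 0.00999). DCTD passed with any 1 culture left out. IMPDH1 passed without PD98059 replicate 3 (adjusted p 0.0268) but not without any of the other 5 (0.0696 to 0.125), and CMPK1 lost its call without DMSO replicate 2, where its fold came under the limit (-0.48). The brightest of the others found by symbol were the purine enzymes GMPS (0.31, adjusted p 0.0661), ATIC (-0.06) and GART (-0.03).

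Chromatin assembly and maintenance genes had 0 of 10 past the threshold and a median of 0.13. At the FDR limit, the histone chaperone NASP (0.47, adjusted p 0.0176) and the remodeller HELLS (0.40, adjusted p 0.0275) were higher, and CHAF1B (-0.29, adjusted p 0.0497), a subunit of chromatin assembly factor 1, was lower. With 1 culture left out, NASP passed the FDR limit in 1 of 6 cases (without PD98059 replicate 3, adjusted p 0.0407), and HELLS and CHAF1B in 0. The maintenance methyltransferase DNMT1 was at 0.15. Of 13 further E2F and pocket protein pathway genes, 0 passed the threshold. Their median was 0.09, and 7 differences were above 0 (53.8%, beside 52.9% of all clusters). At the FDR limit the ubiquitin ligase subunit SKP2 was higher by 0.41 (adjusted p 0.0266), and E2F4, a repressive E2F factor of resting cells, was lower (-0.38, adjusted p 0.0421), and both lost that call in all 6 cases with 1 culture left out.

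Genes of the S phase checkpoint and of mitosis leaned the way the replication genes did. The median of 15 checkpoint and recombination genes was 0.28. Of these, 1 was higher past the threshold and 5 at the FDR limit, beside 0.909% and 1.72% of all clusters. The 5 were BARD1 at 0.52 (adjusted p 0.0207), the partner of BRCA1, then FANCD2 at 0.47, FANCI at 0.46, the kinase CHEK1 at 0.45 and BRCA1 at 0.40. Of 13 mitosis genes, 1 was higher past the threshold and 5 at the FDR limit, with a median of 0.27. All 13 differences were above 0, beside 52.9% of all clusters. CENPF, a centromere protein, was at 0.51 (adjusted p 0.019). The proliferation antigen MKI67 measured 7.52, 7.59 and 7.62 in the controls and 7.98, 8.09 and 8.05 after PD98059, a difference of 0.46 (adjusted p 0.016) with groups apart. The survivin gene BIRC5 (0.42), BUB1 (0.39) and CDC20 (0.36) were the others at the FDR limit. BARD1 passed the threshold without DMSO replicate 1 (adjusted p 0.0383) but not without any other culture (0.0646 to 0.0829), and CENPF passed without PD98059 replicate 1 (0.0327) but not without any other (0.0634 to 0.078). FANCD2 and MKI67 passed the FDR limit only without PD98059 replicate 1 (0.0444 and 0.0429), FANCI only without PD98059 replicate 3 (0.0456), and CHEK1, BRCA1, BIRC5, BUB1 and CDC20 in 0 of the 6 cases. RAD54L, a recombination gene at 0.43, passed without DMSO replicate 3 (0.62, adjusted p 0.0429).

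**Figure D5:**
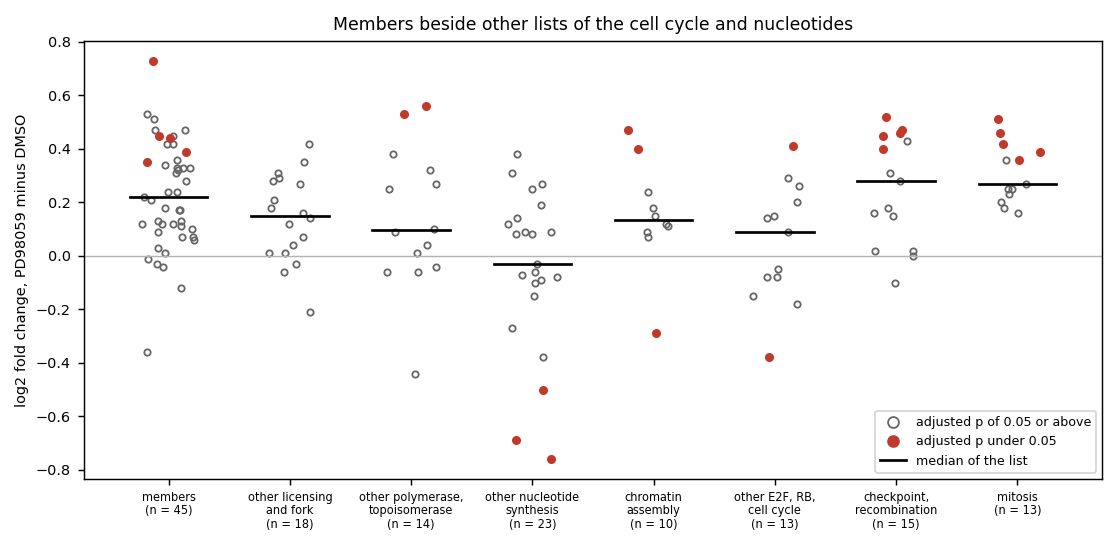
Log2 difference, PD98059-treated minus DMSO-treated (vertical axis), of each of the 45 replication genes (members) and of each gene in the 7 other lists, with bars at the medians and red points at an adjusted p under 0.05. The medians are 0.22 for the replication genes, 0.28 and 0.27 for checkpoint and mitosis genes, 0.15 for further licensing genes and 0.13 for chromatin genes. They are 0.09 for the further polymerase genes, 0.09 for the further E2F genes and -0.03 for the other nucleotide synthesis genes.

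Several facts of the whole arrays stand beside these values. Past the threshold, 0.909% of all clusters were higher and 1.78% were lower. The 6 genes of a list of ERK output (among them DUSP6, EGR1 and SPRY2) were all lower past the threshold, with a median of -1.10. Of 10 reference genes, 0 passed, with a median of -0.07. Of 13 granulosa cell markers, 8 were higher past the threshold. The other 5 were NR5A2 at 0.43, NR5A1 at 0.26, AMH at 0.24, AMHR2 at 0.22 and GATA4 at -0.04. The summed linear level of the 13 was 7850 to 8290 in the controls and 13000 to 13300 after PD98059. Most of that sum came from INHBA, FST and INHA. Of 11 fibroblast and smooth muscle markers, 3 were lower past the threshold (PDGFRA, CNN1 and TAGLN), 9 differences were below 0 and those of MYH11 (0.62, adjusted p 0.0694) and COL3A1 (0.20) were above 0, with a sum of 9360 to 9480 in the controls and 8520 to 9030 after PD98059. The theca marker INSL3 was higher, the only one past the threshold of 3 measured, with sums of 321 to 341 against 482 to 500. Of the other theca markers, CYP17A1 lay below background (-0.07) and LHCGR close to it (0.17), so the theca sum was mostly INSL3. The endothelial marker VWF was lower, the only one past the threshold of 6 measured, with sums of 113 to 121 against 101 to 106. Leukocyte markers had 0 of 6 past the threshold (sums of 219 to 232 against 219 to 283), the endothelial markers PECAM1, KDR, TEK and TIE1 lay below background, and so did all 6 oocyte markers. The part of cell type makeup in the differences of the replication genes was not tested. In RNA of whole cultures, a larger share of cells in S phase and more of a transcript per cell cannot be told apart. RMA gives the probe values of all arrays 1 distribution and leaves a shift shared by all genes unseen. Array medians over clusters were 4.68 to 4.70 in the controls and 4.69 to 4.74 after PD98059. With each array centred on its median, the median difference of the 45 replication genes was 0.19, with 38 above 0.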

How the data were processed

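RNA of 3 DMSO-treated and 3 PD98059-treated bovine granulosa cell cultures was measured on Affymetrix Bovine Gene 1.0 ST arrays after biotin labelling. The authors processed the arrays with RMA in Expression Console and deposited log2 values to 2 decimals. No source used here names the genome build. The series' value table holds the same log2 values (146490 of 146490 equal) and 0 sample columns were unmatched. All 24415 clusters were fitted with limma 3.58.1 (lmFit, eBayes, treatment as the only factor, prior of 2.8 degrees of freedom beside 4 residual ones) in R 4.3.3 without a filter, and p-values were adjusted by Benjamini-Hochberg over all of them. The methods name an ANOVA with an FDR under 0.05 and a fold above 1.4, so the unmoderated test was an alternative. Tables were made with Python 3.11.15 and pandas 2.3.3. Each gene was taken by symbol, by its brightest cluster where it had several. Transcript accessions were matched to RefSeq (ARS-UCD2.0) for names only.

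The members and lists were chosen with earlier results of these data known. Values of each array are given for genes past the threshold and, in each role group, for the brightest and the most different of the others. From the other lists, genes past the threshold and up to 3 others by level are named. Further genes are named where a count of 5 or fewer singles them out, and some others after their values were seen. The fit was tested on simulated data of 24415 clusters with 200 changed, where 6 of 147 calls fell on unchanged clusters. Arrays give no counts, and their number limits the precision. The alternatives tried were a replicate block, other filters, scalings, variance models and summaries, limma's treat, the FDR limit alone, names by accession, and leaving out each array.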

Additional observations from a re-analysis of the deposited data

How the results depend on the processing

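In every alternative, 0 replication genes were lower past the threshold, and the median difference stayed between 0.18 and 0.25. Many alternatives cannot change that median and returned 0.22 by construction. They were the FDR limit alone, treat, the unmoderated test, the variance trend, the replicate block, the background filter and the mean of clusters. As reported, 1 replication gene was higher past the threshold and 5 at the FDR limit, and 7 genes of the other lists and 656 of all clusters passed the threshold. Only counts that moved by over 1.5 times follow, with the number of all clusters past the threshold beside them. That number includes the fold limit. Counts of replication genes at the FDR limit under the other settings therefore have no background at the same limit beside them. With the FDR limit as the threshold, 5 replication genes, 20 genes of the other lists and 1110 clusters passed. A filter at the background level gave 3 replication genes past the threshold and 15 at the FDR limit, with 703 of 15345 clusters past the threshold. A filter at the median level gave 3 and 19, with 640 of 12206 clusters. The mean of all clusters per gene, a fit without the clusters that lack a symbol, gave 3 and 12, with 630 of 20137 gene symbols. Each replication gene had 1 cluster, so its levels were the same in that fit. A repeated quantile normalization gave 5 and 9 (640 of 24415 clusters), and a trend of variance on level 3 and 19 (779 of 24415). With limma's treat, which tests the fold limit itself, 0 replication genes, 0 genes of the other lists and 38 clusters passed. The unmoderated test gave 4 genes of the other lists and 350 clusters. With any 1 array left out, 1 to 2 replication genes passed the threshold and 1 to 2 the FDR limit, with 3 to 7 genes of the other lists and 271 to 491 clusters. The second replication gene past the threshold was ORC1, without DMSO replicate 3. Names by accession, and the counts at the FDR limit under settings other than the reported one, were added after seeing the data, and names by accession moved no count of genes by over 1.5 times. The cause of these shifts was not tested.

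Equal replicate numbers do not pair the cultures by any label, and their deviations correlated at 0.0507, 0.0366 and 0.0375, each array best with its own number. With the replicate block, 0 replication genes passed either limit, with 1 gene of the other lists and 237 clusters, and TK1 had an adjusted p of 0.0514. TK1 also failed with treat (adjusted p 1.0) and passed in the other alternatives. At the FDR limit, 5 of 50 simulated 1.3-fold changes were recovered, in a simulation where far fewer clusters passed than in the measured data. POLE2 and DUT lie close to background. A search of promoters for motifs was not run.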
